A study of Saccharomyces cerevisiae with 8 samples.

Results

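The mitochondrial genome of the yeast Saccharomyces cerevisiae encodes a few hydrophobic core subunits of the respiratory chain and of the ATP synthase, 1 ribosomal protein and a set of intron proteins. The 10 transcripts described here were chosen by the systematic names of their probes on the array. They are COX1 (Q0045), COX2 (Q0250) and COX3 (Q0275) of cytochrome c oxidase, COB (Q0105) of the cytochrome bc1 complex, ATP6 (Q0085), ATP8 (Q0080) and OLI1 (Q0130) of the ATP synthase, VAR1 (Q0140) of the mitochondrial ribosome, and the COX1 intron reading frames AI2 (Q0055) and AI5_ALPHA (Q0070). All 10 had 1 probe each on the array, out of 6227 yeast genes with a probe, and each probe was printed on 2 spots.

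The compared cultures were strain BY4743, a diploid laboratory yeast without functional LEU2 and URA3 genes, after 3 h at 30 °C in rich YPD medium. Of the 8 arrays, 4 came from medium with 40 g/l isopropanol (2-propanol, an alcohol of interest as a solvent and fuel) and 4 from medium without it (control, 0 g/l). Some sample descriptions write the dose in mg/l, whereas the source names, the characteristics and the study's design give g/l. The series addresses which genes bear on isopropanol tolerance, and this comparison asks which mitochondrial transcripts differed between treated and untreated cells.

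Mitochondrial DNA of yeast is copied into a few long primary transcripts by a single-subunit RNA polymerase, Rpo41, with its factor Mtf1. The COX1 message and a shared message of ATP8 and ATP6 are cut from 1 such transcript, and OLI1 and VAR1 are cut from another. Introns interrupt COX1 and COB, and some hold reading frames for splicing or mobility proteins. Nuclear-encoded activator proteins, most of them devoted to a single message, govern processing, stability and translation. In glucose-rich medium this yeast ferments, and expression of the respiratory system is partly repressed. Mitochondrial messages of this yeast lack the long poly(A) tails of nuclear messages. The labels name a labelling kit that usually primes on poly(A), so the efficiency with which these RNAs were labelled is not known. Changes are therefore compared between arrays. Where a probe is called bright or dim, or is ranked by signal, this describes its signal and not the amount of RNA.

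The 75th percentile of processed signal, the value to which each array was scaled, was 2260 ± 306 intensity units on the isopropanol arrays and 1568 ± 172 on the control arrays (SD, n = 4 each). URA3 was above background in 0 and LEU2 in 1 of 16 spot readings. The design speaks of at least 3 independent experiments per concentration, but no label ties an array to an experiment. The p-values therefore rest on array-to-array spread, part of which may be technical. The isopropanol arrays shared 1 slide and the control arrays the other, and for every result below the effects of slide and of isopropanol cannot be told apart. Relative to 6 spike-in probes the 75th percentile stood 1.16 higher (log2) on the isopropanol arrays. Isopropanol replicate 1 stood apart in its spike-ins, and without it that difference was 0.75. In addition, less mitochondrial RNA per cell and a larger share of cells that lack mitochondrial DNA (petite cells) cannot be told apart in bulk RNA.

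All 10 transcripts were lower with isopropanol. The fitted changes ran from -2.29 to -0.59 on the log2 scale with a median of -1.48 (-1.35 with VAR1, not measured above background with isopropanol, at its bound), against a median of 0.11 over the 5879 genes tested (limma, Benjamini-Hochberg adjusted p under 0.05 as the threshold). Of all genes tested 77.4% passed in either direction and 29.5% fell, so that a fall as such was common. A fitted fall of at least 2-fold was seen in 9 of the 10 and in 1.99% of all genes. In all 10 every isopropanol array lay below every control array, which held for 27.2% of all genes. VAR1 entered the test only through the control arrays, where it was high, so its call and its separation add no support. It counts among the 9 with a 2-fold fall by its fitted value, and its bound is 2.28-fold. With only probes above background on all arrays tested, 9 of 9 transcripts were lower, where 30.2% of all genes were. The other direction of change, higher with isopropanol, was called in 0 of the 10 (at an unadjusted p under 0.05 as well, since all 10 were lower) and in 47.9% of all genes. The scale of these values is the 75th percentile of the array. On the spike-in scale the median of all genes stood at 1.27 and 2 of the 10 passed as lower, or 7 of the 10 when isopropanol replicate 1 was left out. VAR1, not measured above background with isopropanol, was among those that passed in both cases. Relative to the median of all genes on the same scale, all 10 were lower on each scale. That subtraction cancels any single factor per array. The 75th percentile, median and spike-in scales therefore give the same relative values by construction, and these say nothing about an absolute fall.

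**Figure D1:**
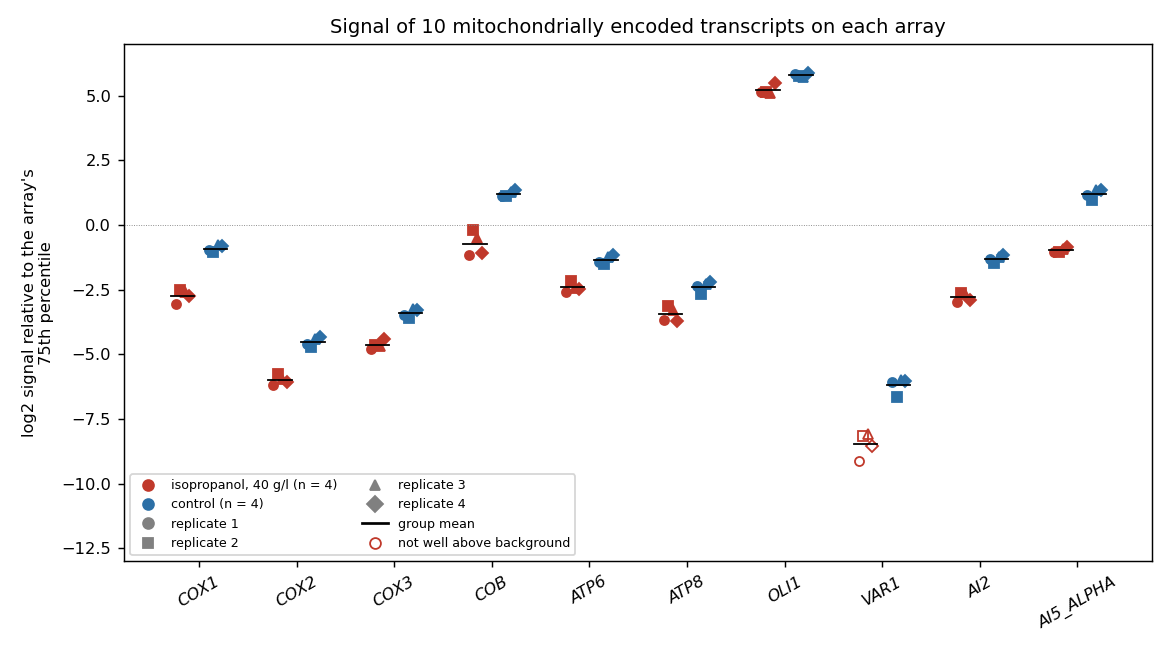
Log2 signal relative to the array's 75th percentile (vertical axis) of the 10 mitochondrially encoded transcripts on the 4 isopropanol arrays (red, left of each pair) and the 4 control arrays (blue, right), with group means as black bars. The groups do not overlap for any of the 10 transcripts, and open symbols mark VAR1 readings that were not well above background.

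COX1, COX2 and COX3 encode the catalytic core of cytochrome c oxidase, the enzyme that passes electrons to oxygen. COX1 stood at -3.06, -2.53, -2.61 and -2.73 (log2 signal relative to the 75th percentile) on isopropanol arrays 1 to 4, against -0.97, -1.05, -0.79 and -0.82 on control arrays 1 to 4. The lowest COX1 reading came from isopropanol replicate 1, and the gap between the groups exceeded the range within either. COX1 thus fell 3.53-fold (95% interval 2.98 to 4.20; log2 -1.82, SE 0.11; limma adjusted p = 2.47e-07).

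COX2, whose product carries the first copper centre of the enzyme, had a weak signal. It read -6.20, -5.77, -5.93 and -6.08 with isopropanol, against -4.59, -4.70, -4.42 and -4.35 in the control, and all 8 arrays measured it above background. In unscaled intensity units the COX2 probe averaged 36.0 ± 7.70 on isopropanol arrays and 68.6 ± 6.78 on control arrays (SD, n = 4 each). The fall was 2.79-fold (2.38 to 3.27; limma adjusted p = 5.81e-07).

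COX3, for the third core subunit, read -4.78, -4.63, -4.66 and -4.41 with isopropanol, against -3.46, -3.58, -3.25 and -3.27 in the control. It fell 2.34-fold (2.03 to 2.70; limma adjusted p = 1.07e-06). Isopropanol arrays differed by less for COX3 (SD 0.15) than for COX1 (SD 0.24).

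COB encodes cytochrome b, the mitochondrial subunit of the bc1 complex, which passes electrons from ubiquinol to cytochrome c. It read -1.15, -0.18, -0.51 and -1.09 with isopropanol, against 1.13, 1.11, 1.26 and 1.35 in the control. The isopropanol arrays were spread far more widely (SD 0.47) than the control arrays (SD 0.12), with replicates 2 and 3 above replicates 1 and 4. In intensity units that is 1082, 2159, 1679 and 847 with isopropanol, against 3665, 3498, 3988 and 3345 in the control. COB fell 3.85-fold (2.85 to 5.20; log2 -1.94, SE 0.19; limma adjusted p = 8.28e-06).

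ATP6, ATP8 and OLI1 encode membrane subunits of the ATP synthase. ATP6, for the subunit a that forms the proton path, read -2.58, -2.17, -2.42 and -2.48 with isopropanol, against -1.44, -1.51, -1.22 and -1.16 in the control. ATP8, for the small subunit 8 of the same membrane sector, read -3.66, -3.13, -3.29 and -3.71 with isopropanol, against -2.36, -2.67, -2.29 and -2.18 in the control. For both probes, which read 1 shared message, the groups did not overlap. Isopropanol replicate 2 and control replicate 2 came closest to each other. The falls were 2.11-fold for ATP6 (1.80 to 2.48; limma adjusted p = 5.75e-06) and 2.10-fold for ATP8 (1.69 to 2.62; limma adjusted p = 6.43e-05).

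OLI1 encodes subunit 9, the proteolipid that forms the rotating ring of the ATP synthase. Its probe was among the brightest on the array, with 17 of the 5879 genes brighter. OLI1 read 5.15, 5.14, 5.12 and 5.50 with isopropanol, against 5.84, 5.78, 5.74 and 5.90 in the control. Isopropanol replicate 4 stood above the other isopropanol arrays on this scale only. In unscaled intensity it was the lowest of the group (85561.9, 86628.5, 82808 and 81755.9 on replicates 1 to 4). Its 75th percentile was also the lowest (1802, against 2384 to 2449 on the other isopropanol arrays). OLI1 fell 1.50-fold (1.32 to 1.71; log2 -0.59, SE 0.08; limma adjusted p = 0.000117), the only fitted fall of the 10 under 2-fold. The intervals of ATP6 and ATP8 also reach below 2-fold, and ATP8 stood at -0.99 (log2) without isopropanol replicate 4.

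The size of the OLI1 change depended on the scaling. In unscaled intensity the OLI1 probe averaged 84189 ± 2285 on isopropanol arrays and 88190 ± 7516 on control arrays (SD, n = 4 each), and 0 spots on any array were saturated. After quantile normalization its log2 change was -0.17 (limma adjusted p = 0.0251), and on the spike-in scale it was 0.57 (adjusted p = 0.205). Changes followed signal across the array. With the genes ranked by signal and cut into 10 groups of about 588, the brightest group, which holds OLI1, had a median log2 change of -0.28, and the dimmest had 0.52. The part of this trend in the OLI1 value was not tested. The other transcripts lie in groups with medians of -0.039 to 0.52, and each of the 10 lay below the median of its own group.

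VAR1 encodes a protein of the small subunit of the mitochondrial ribosome, the only ribosomal protein made inside the organelle. It was the dimmest of the 10 probes and was well above background in 0 of 8 isopropanol spots and in 8 of 8 control spots. The VAR1 readings were -9.12, -8.16, -8.06 and -8.55 with isopropanol, against -6.08, -6.63, -6.00 and -6.03 in the control. In intensity units they averaged 6.76 ± 2.46 with isopropanol and 22.1 ± 4.64 in the control (SD, n = 4 each). VAR1 was at least 2.28-fold lower, with each isopropanol array set no lower than the lowest signal of a probe whose spots were all well above background. The limma adjusted p of 7.75e-06 is that of the fitted change (log2 -2.29, SE 0.23), not of the bound.

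**Figure D2:**
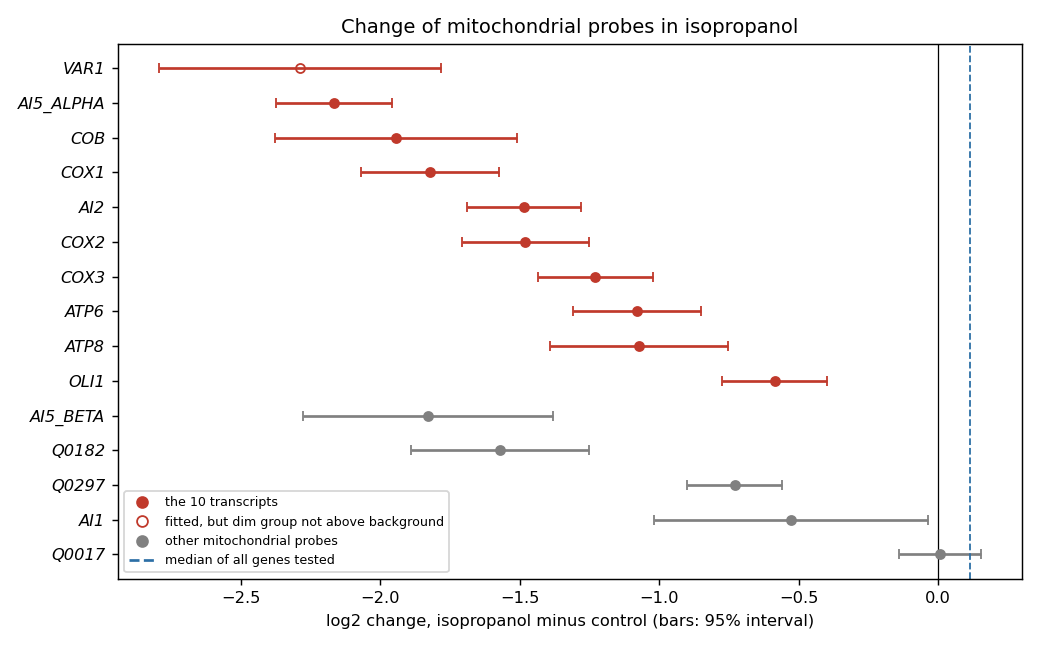
Fitted log2 change, isopropanol minus control (horizontal axis), of the 10 transcripts (red) and of 5 further mitochondrial probes (grey), with 95% intervals and the median of all genes tested (dashed, 0.11). All 10 intervals lie below 0, and the open VAR1 point is a fitted value whose isopropanol readings were not well above background.

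The intron reading frames AI2 and AI5_ALPHA lie in the COX1 gene and continue the frame of its upstream exons, so that they share sequence with the COX1 precursor. AI2 encodes a maturase and reverse transcriptase, and AI5_ALPHA a homing endonuclease. Where in each frame a probe lies was not analysed here, so a probe may read precursor, free intron or exon. AI5_ALPHA read -1.06, -1.04, -0.91 and -0.83 with isopropanol, against 1.17, 0.95, 1.35 and 1.35 in the control. It fell 4.49-fold (3.89 to 5.18; log2 -2.17, SE 0.09; limma adjusted p = 2.25e-08), and 14 of the 5879 genes had a lower fitted change. AI2 read -2.96, -2.61, -2.66 and -2.88 with isopropanol, against -1.30, -1.48, -1.22 and -1.17 in the control. The AI2 fall was 2.80-fold (2.43 to 3.22; limma adjusted p = 2.56e-07). Neither frame's groups overlapped. Among the 7 coding genes measured above background on all arrays the changes ran from -1.94 (COB) to -0.59 (OLI1). AI2 lay within that range and AI5_ALPHA below it, a difference that was tested only against COX1.

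The array held 13 further probes with mitochondrial systematic names, of which 9 matched a RefSeq locus tag, and 5 of them entered the test. AI5_BETA (Q0075), the reading frame of a later COX1 intron, fell 3.55-fold (limma adjusted p = 1.59e-05). It read -4.91, -4.34, -4.56 and -5.38 with isopropanol, against -2.88, -3.28, -2.87 and -2.84 in the control. Q0182 fell 2.97-fold and Q0297 1.66-fold (limma adjusted p = 4.04e-06 and 1.15e-05), both with groups that did not overlap. AI1 (Q0050), the frame of the first COX1 intron, had overlapping groups and only just passed (log2 -0.53, SE 0.22; limma adjusted p = 0.0498). The AI1 call was lost without isopropanol replicate 1 or 4 (adjusted p = 0.135 and 0.131) and without control replicate 1, 3 or 4 (0.0863, 0.116 and 0.101). It was also lost with the replicate number as a block (0.068), in the series matrix (0.0547), with no filter (0.0688) and with outlier spots kept (0.0526), and on the spike-in scale AI1 stood at 0.63 (adjusted p = 0.163). Q0017 read -3.27 ± 0.13 with isopropanol and -3.28 ± 0.06 in the control (SD, n = 4 each), a difference of 0.0082 (95% interval -0.14 to 0.16), although it was lower after quantile normalization (-0.39; adjusted p = 0.000462). The remaining 8 probes, which include the intron frames AI3, AI4, BI2, BI3 and BI4, were not well above background on all arrays of either group.

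Differences between 2 probes on the same array do not depend on the factor by which an array is scaled, and they show whether messages of 1 primary transcript kept their proportions. They can depend on a scaling that varies with signal, such as quantile normalization, after which the pairs were not tested. After it the changes were -2.04 for COX1, -1.73 for AI2, -2.15 for AI5_ALPHA, -1.43 for ATP8 and -1.31 for ATP6. The within-array differences were compared for 6 pairs, of which 5 were tested with an exact two-sided permutation test over the 8 arrays. In that test 0.0286 is the smallest p possible, and p was adjusted over the 5. COX1 minus ATP6 was -0.48, -0.36, -0.18 and -0.24 (log2) on isopropanol arrays, against 0.47, 0.45, 0.43 and 0.34 on control arrays. The difference fell by 0.74 and the groups did not overlap (exact p = 0.0286, adjusted p = 0.0476). COX1 minus ATP8 was 0.60, 0.61, 0.69 and 0.98 on isopropanol arrays, against 1.39, 1.61, 1.50 and 1.36 on control arrays, a fall by 0.75 (exact p = 0.0286, adjusted p = 0.0476). COX1 thus fell 1.67-fold more than ATP6 and 1.68-fold more than ATP8. ATP8 minus ATP6 averaged -1.04 ± 0.15 with isopropanol and -1.04 ± 0.10 in the control (SD, n = 4 each), a change of 0.0075 with overlapping groups (exact p = 0.971, also 0.971 after adjustment). Both probes read 1 shared message, so this pair does not compare 2 separate messages. With 4 arrays a group a small difference between ATP8 and ATP6 was not detectable.

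Within the COX1 gene, COX1 minus AI2 averaged 0.046 ± 0.11 with isopropanol and 0.38 ± 0.051 in the control (SD, n = 4 each). It fell by 0.34 without overlap (exact p = 0.0286, adjusted p = 0.0476), so that the COX1 probe fell 1.26-fold more than the AI2 probe. COX1 minus AI5_ALPHA went the other way, with -1.77 ± 0.23 with isopropanol and -2.12 ± 0.075 in the control (SD, n = 4 each). That difference of 0.34 did not pass the test (exact p = 0.0571, adjusted p = 0.0714). With single arrays left out it passed only without isopropanol replicate 1 (0.42; exact permutation test, adjusted p = 0.0357). Without any other array the adjusted p of that test was 0.0714 to 0.107, and with normexp it was 0.143. OLI1 minus VAR1 was 14.27, 13.31, 13.18 and 14.06 on isopropanol arrays, against 11.93, 12.41, 11.74 and 11.93 on control arrays. It was not tested because VAR1 was not measured above background with isopropanol.

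**Figure D3:**
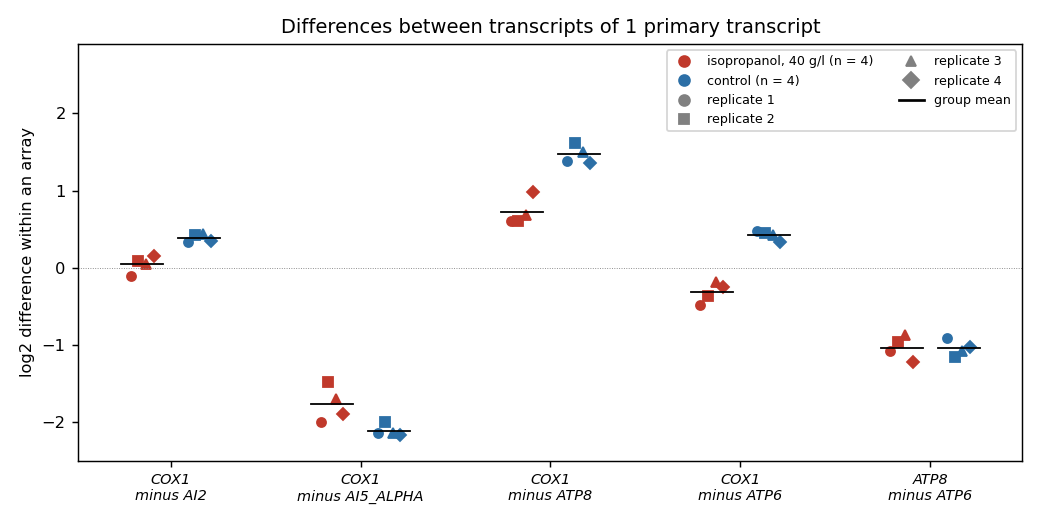
Log2 difference between 2 probes on the same array (vertical axis) for the 5 tested pairs, on isopropanol arrays (red, left) and control arrays (blue, right), with group means as black bars. The groups separate for COX1 against AI2, ATP8 and ATP6, and they overlap for COX1 against AI5_ALPHA and for ATP8 against ATP6.

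Within a group, the same arrays were lowest or highest for most of the transcripts. Isopropanol replicate 1 gave the lowest isopropanol reading for 8 of the 10, and it was the lowest isopropanol array for 22.7% of all genes. Isopropanol replicate 2 gave the highest for 6 of the 10, against 23.1% of all genes. In the control, replicate 2 was lowest for 9 of the 10 and for 25.1% of all genes. Isopropanol replicate 1 is also the array whose spike-ins stood apart, and the part of this in the order of the arrays was not tested. Leaving out any single array kept all 10 calls, and without isopropanol replicate 1 the COX1 change was -1.71 and the COB change -1.80.

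Of 34 nuclear genes that serve mitochondrial gene expression, 3 fell, 23 rose and 8 did not pass, with a median log2 change of 0.31 beside 0.11 for all genes, of which 47.9% rose. Many of these genes have dim probes, and dim genes tended to rise on this scale. The signal groups that hold ATP6, ATP8 and COX3 had medians of 0.19, 0.25 and 0.44. Whether the 34 differ from genes of like signal was not tested. The polymerase gene RPO41 rose 1.26-fold (limma adjusted p = 7.62e-05; named after its value was seen), and its factor gene MTF1, also named afterwards, stood at a change of -0.0052 (limma adjusted p = 0.933). In the list of transcription and RNA turnover genes, which holds both of these, 5 of 7 rose and 0 fell, among them SUV3 1.36-fold and DSS1 1.31-fold, the helicase and nuclease of the mitochondrial degradosome, and CBT1 1.32-fold, for a factor in COB message processing. Of 7 splicing genes 5 rose and 0 fell, namely, among others, MNE1 2.19-fold, CBP2 1.43-fold and MSS18 1.37-fold, each required for excision of group I introns. With normexp 0 of the 7 splicing genes passed in either direction, and CBP2 stood at -0.14 (limma adjusted p = 0.688).

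Factors for single messages were compared with the message they serve. Of 5 genes for ATP6 and ATP8 expression all 5 rose, where 47.9% of all genes did. With normexp 1 of the 5 rose, where 18% of all genes did. After median centring and after quantile normalization 4 of the 5 rose, where 34.6% and 35% of all genes did. NCA3, which acts with NCA2 on the ATP6 and ATP8 message, had means of 2.84 ± 0.19 with isopropanol and -0.27 ± 0.06 in the control (log2 signal; SD, n = 4 each) and rose 8.62-fold (log2 3.11, SE 0.08; limma adjusted p = 1.38e-09). ATP22, for the activator of ATP6 translation, rose 1.68-fold and AEP3, which stabilises the same message, 1.56-fold. Both COX1 translation factors rose, PET309 and MSS51 by 1.20-fold each, as did the COX2 factor PET111 by 1.16-fold. None of these 3 calls held as a rise with normexp, median centring or quantile normalization. PET309 stood at -0.12 with normexp and -0.094 after quantile normalization, and PET111 at -0.29 with normexp, while PET111 passed as lower after quantile normalization (-0.21; limma adjusted p = 0.00122). Of 3 COX3 factors, PET494 rose 1.48-fold and PET54 1.11-fold, and PET122 fell 1.32-fold. Of 5 COB factors, CBS1 rose 1.55-fold, and CBS2 and CBP6 fell 1.12-fold and 1.28-fold. For OLI1, ATP25 rose 1.29-fold and AEP2 1.24-fold, and AEP1 had a change of 0.056 that did not pass. SOV1, for the VAR1 message, had a change of 0.10 (limma adjusted p = 0.210). AEP1 and SOV1 were named after their values were seen. With normexp background correction 3 of the 34 factors rose, 0 fell and their median was -0.031, where 18% of all genes rose. After quantile normalization 11 rose and 5 fell with a median of 0.031, where 35% of all genes rose. With normexp PET494, ATP25 and AEP3 also stood below 0 (-0.095, -0.11 and -0.15) without passing. NCA3 kept its rise on both (log2 3.08 and 3.18).

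Nuclear subunits of the complexes that contain these mitochondrial products went both ways by small amounts. Of 9 nuclear cytochrome c oxidase genes, 4 fell and 2 rose (median 0.03), with COX6 1.28-fold lower, COX5B 1.14-fold lower and COX7 1.17-fold higher. The count of 4 that fell became 1 without control replicate 3 or 4 and with the replicate block, and 2 without control replicate 1 or isopropanol replicate 1, 3 or 4. Of 9 bc1 complex genes, 2 fell and 4 rose (median 0.04). QCR2 rose 1.60-fold (limma adjusted p = 6.29e-06), QCR9 1.28-fold and COR1 1.26-fold, the first and last for the large core proteins, and QCR9 stood at -0.035 with normexp (limma adjusted p = 0.881). Of 15 ATP synthase genes, 1 fell and 6 rose (median 0.08), with ATP7 1.33-fold, the inhibitor gene INH1 1.31-fold and ATP15 1.25-fold higher. Across the 33 genes the lowest change was the COX6 fall by 0.36 (log2), which is smaller in size than the change of each of the 10 mitochondrial transcripts. On the reported scale 7 of the 33 fell and 12 rose, where 29.5% of all genes fell and 47.9% rose. After median centring 13 fell and 7 rose, where 41.6% of all genes fell and 34.6% rose. The 7 that fell became 4 without control replicate 3, without control replicate 4 and with the replicate block.

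Of 28 tested proteins of the small mitochondrial ribosomal subunit, to which the VAR1 product belongs, 3 fell and 12 rose (median 0.09), where 29.5% of all genes fell and 47.9% rose. RSM24 rose 1.35-fold, RSM22 1.30-fold and PET123 1.29-fold. After median centring 10 fell and 5 rose, where 41.6% of all genes fell and 34.6% rose. Of 8 genes for the maintenance of mitochondrial DNA, 3 fell and 2 rose (median -0.03), where 29.5% of all genes fell and 47.9% rose. CCE1, for a nuclease that resolves DNA junctions, rose 1.37-fold and MIP1, the mitochondrial DNA polymerase gene, 1.16-fold, while RIM1, for a single-strand binding protein, fell 1.28-fold. Of the 35 genes named from the nuclear lists for the size of their called change, which leaves out RPO41, MTF1, AEP1 and SOV1, 11 kept their call under each of normexp, median centring and quantile normalization, namely NCA3, DSS1, RIM1, COX6, QCR2, COR1, ATP7, ATP15, RSM24, RSM22 and PET123.

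**Figure D4:**
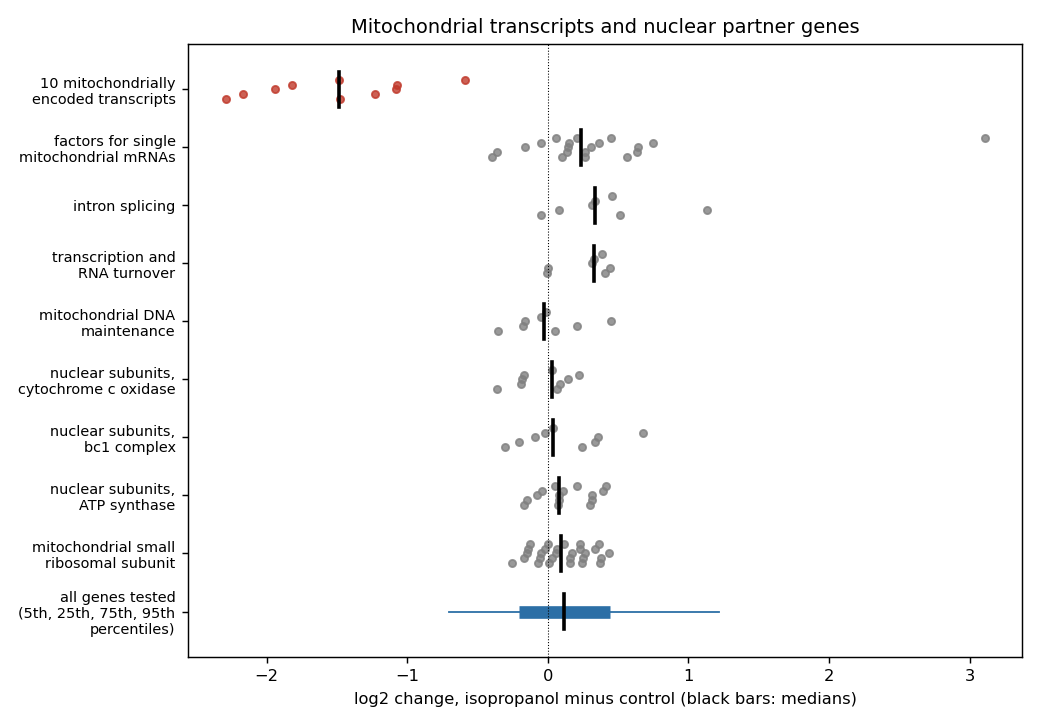
Log2 change, isopropanol minus control (horizontal axis), of the 10 mitochondrially encoded transcripts (red) and of the tested genes of the nuclear lists (grey), with medians as black bars. The bottom row gives all 5879 genes tested by their 5th, 25th, 75th and 95th percentiles (-0.70, -0.21, 0.44 and 1.22), and the median of the 10 (-1.48) lies below the 5th.

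The scale on which a change is stated shifted the 10 transcripts together with the other genes. All 10 passed as lower with normexp, median centring and quantile normalization, where 23.7%, 41.6% and 38.5% of all genes did. With median centring they ran from -2.45 (VAR1) to -0.74 (OLI1), and with normexp from -1.99 (AI5_ALPHA) to -0.54 (OLI1), with VAR1 at -1.45 (limma adjusted p = 0.022). On the spike-in scale AI5_ALPHA (-1.01) and VAR1 (-1.13) passed as lower (limma adjusted p = 0.0291 and 0.0153), where 0.323% of all genes did. COX1, COX2, COX3, COB and AI2 stood between -0.79 and -0.072 without passing, and ATP6, ATP8 and OLI1 at 0.076, 0.083 and 0.57. On that scale 78.1% of all genes were higher, or 83.9% without isopropanol replicate 1. Without isopropanol replicate 1 the spike-in scale gave -1.38 for AI5_ALPHA, -1.05 for COB and -0.96 for COX1, and 7 of the 10 passed, where 1.34% of all genes did. All 10 also passed as lower in the series matrix (28.8% of all genes lower), with no filter (27.9%), with every spot required above background (29.7%) and with outlier spots kept (29.3%). The replicate block gave 10 of 10 as well (28.5% of all genes), as did the scan session as a random block (32.8%). The arrays were scanned in 3 sessions, and neither block can separate slide from isopropanol. Where all arrays had to be above background 9 of 9 passed (30.2%).

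**Figure D5:**
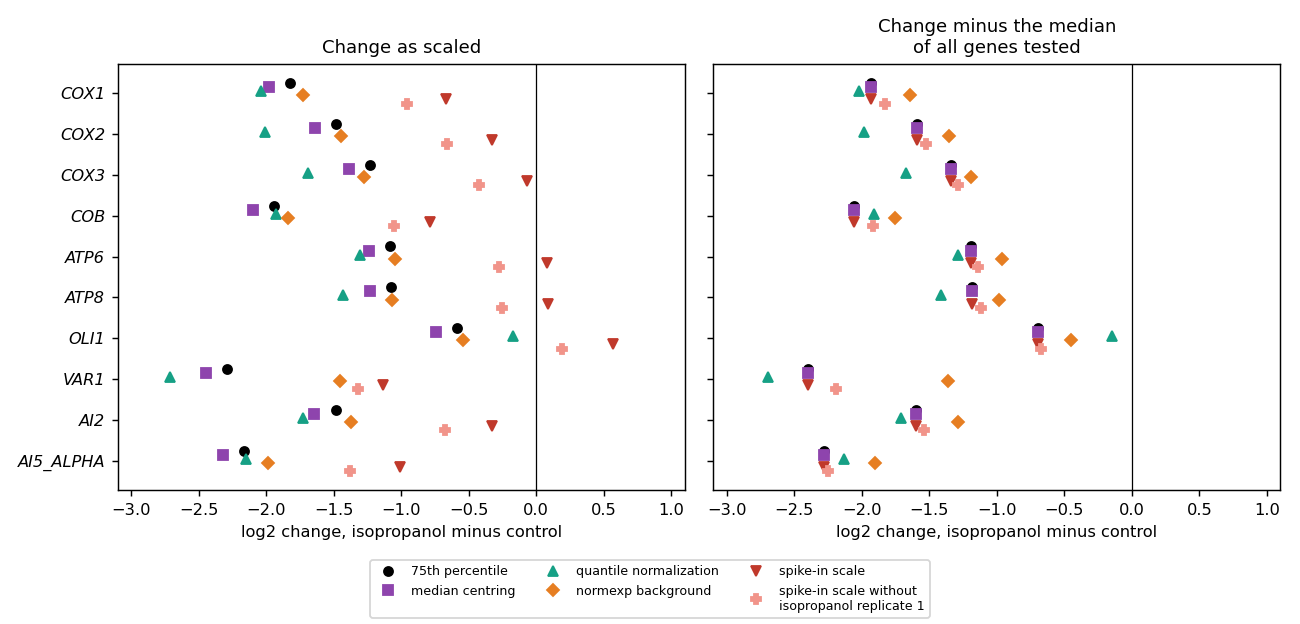
Log2 change of the 10 transcripts, isopropanol minus control (horizontal axes), under 6 ways of scaling or background correction, as scaled (left) and after subtraction of the median of all genes on the same scale (right). On the left the spike-in scale moves the points towards or past 0, and on the right all points lie below 0.

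Over the 8 arrays, the nuclear genes whose values correlated best with the mean of the 9 transcripts measured on all arrays were RPL23B, HTA2 and POM34 (Pearson r of 0.996, 0.996 and 0.995), which encode a cytosolic ribosomal protein, a histone and a nuclear pore protein. These values describe mostly the step between the groups, which the arrays share, and 710 nuclear genes had an r over 0.95 (a level set after the data were seen).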

How the data were processed

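Per the labels' protocols, complementary RNA made from total RNA carried the dye Cyanine 3, and each array held 1 sample. The scanner files come from Agilent Feature Extraction, whose version is 9.5.3.1 per the file headers and 9 in the submitters' processing notes. The deposited processed signal is a linear intensity, with background removed and spatial trend corrected but no scaling between arrays. The deposited spot and background medians are raw intensity values, and other columns flag background, saturation and uniformity. Deposited log2 values also exist as a series matrix. Compared with the scanner files these are signals relative to the 75th percentile (column medians -1.52 to -1.32), in the same direction and without centring of genes, and how they were made is not given in the sources used here.

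Samples were grouped by title, and each group has 4 arrays, which limits the precision. Log2 processed signal minus each array's 75th percentile was averaged over a probe's 2 spots, without spots the scanner software marked as outliers (0 to 21 per array). A probe was tested where it was well above background (1 spot sufficed) on every array of a group, and the brightest probe stood for a gene. Changes were fitted with limma 3.58.1 in R 4.3.3 over 5879 genes, with Benjamini-Hochberg adjustment at 0.05. Systematic names follow an older annotation (sacCer1); symbols are from RefSeq R64, whose coordinates are not printed. Of 104 listed nuclear genes 1 is not on the array. The fit was tested on simulated data. Members and lists were chosen with earlier results of these data known. Named are all 10 members, up to 3 genes per list with the largest called change, LEU2 and URA3, and the genes most correlated with the members, with other names marked. Alternatives covered background correction, scaling, filters, outlier spots, blocks and each array left out. Same-numbered arrays did not deviate together (correlations of -0.16 to 0.05), so no pairing was used.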

Additional observations from a re-analysis of the deposited data

Results flagged for a closer look

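In 2 of the 20 groups of 4 readings (10 transcripts, each with isopropanol and in the control) 1 array stood apart from the other 3 by Dixon's test, and chance alone marks about 1 in 20 groups. OLI1 on isopropanol replicate 4 read 5.50 (log2 relative to the 75th percentile), with the nearest isopropanol array at 5.15. In unscaled intensity that array was the lowest of the isopropanol group for OLI1 (81755.9), and its 75th percentile was the lowest as well (1802). VAR1 on control replicate 2 read -6.63, with the nearest control array at -6.08. Without isopropanol replicate 4 the OLI1 change was -0.68, and over all arrays left out in turn the VAR1 change ran from -2.44 to -2.07.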

How the results depend on the processing

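All 10 transcripts stayed lower and past the threshold with normexp, median centring, quantile normalization, the series matrix, no filter, both other filters on dim probes (9 of 9 tested where all arrays had to be above background, which leaves VAR1 out), outlier spots kept, the replicate block, the scan session as a random block and each array left out. The replicate block gave 10 of 10 lower and 4417 genes called, against 4550 without it. The spike-in scale ended 8 calls and left 2 (AI5_ALPHA, and VAR1 by its fitted value only), with ATP6, ATP8 and OLI1 at 0.0758, 0.0833 and 0.571. Without isopropanol replicate 1, an alternative chosen after the data were seen, it left 7, with OLI1 at 0.19. Over all genes normexp called 2451 (1056 higher), and the spike-in scale 19 lower and 4592 higher, or 79 and 4950 without that array. Of the other mitochondrial probes 0 and 2 were then lower. Of 103 nuclear genes in the lists 49 were higher and 16 lower, where 47.9% and 29.5% of all genes were. With normexp 14 were higher (18% of all genes), and after quantile normalization 29 (35%). Median centring gave 31 higher and 35 lower (34.6% and 41.6%). The spike-in scale gave 98 and 0 (78.1% and 0.323%), or 102 and 0 without isopropanol replicate 1 (83.9% and 1.34%). These counts moved in the same direction as the shares of all genes. For pairs, ATP8 minus ATP6 was -0.0273 with normexp and ran from -0.0473 to 0.0702 with each array left out, and COX1 minus AI5_ALPHA from 0.25 to 0.42. The cause of these shifts was not tested. Dim signal limits VAR1 most, and COX2 next.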
